A study of Mus musculus with 16 samples.

Results

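Peroxisomes are single-membrane organelles that shorten fatty acids which mitochondria handle poorly, such as very long, branched and dicarboxylic chains, and that make and destroy hydrogen peroxide. Their matrix enzymes are made in the cytosol and imported by the peroxins, the products of the Pex genes, which also insert membrane proteins and divide the organelle. In rodent liver, many genes of peroxisomal oxidation are known targets of the fatty acid receptor PPAR alpha. The 36 genes described here were chosen by symbol from the 30463 genes of the deposited table, and every one of the 36 was found there. They are 18 enzymes of oxidation and hydrogen peroxide metabolism, 5 transporters and other membrane proteins, and 13 Pex genes. The expression values were not used to choose them, but the choice was made with earlier results of these data known.

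RNA was sequenced from whole liver of 16 wild-type C57BL/6N mice, all aged 14 weeks, in 4 groups of 4. At 2 weeks of age the mice were injected with vehicle or with DEN (diethylnitrosamine, a liver carcinogen that alkylates DNA), and from 6 weeks the mice stayed on control diet or went onto a diet with 60% fat. Crossing injection with diet gives the groups: control diet after vehicle, control diet after DEN, high fat diet after vehicle, and high fat diet after DEN. Each of the 16 value columns of the table carries a library code that matches no sample label, so no value per mouse or per group is given. What is described is the 1 comparison that the authors' deposited table holds, which gives each gene's mean normalized count, its log2 fold change with a standard error (SE), and an adjusted p-value. Neither side of it is named. The name of the table carries the abbreviation that the sample titles use for the high fat diet, but no column says which libraries stand on which side. A gene with a log2 fold change above 0 is therefore called higher on the positive side, and whether diet, DEN or both separate the sides was not tested.

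The tissue label was checked against marker genes. Mean normalized counts of the 8 hepatocyte markers ran from 12999 (Serpina1a) to 1079860 (Alb) in the authors' deposited table. Adipocyte genes were near 0, with mean normalized counts of 0.387 to 0.558 for the 3 of 4 that have a row there, and 2 of 3 kidney tubule genes were at 0.440 and 0.483; Lep and Kap have no row in the table. In whole tissue, fewer cells of a type and less RNA per cell cannot be told apart.

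By the authors' mean normalized count, the oxidation enzymes were the more abundant class. Which libraries that mean covers is not stated. The mean normalized count per kb of exon had a median of 1450 over the 18 enzymes, 750.5 over the 5 membrane genes and 271 over the 13 Pex genes. The 3 highest levels per kb were 18690 for Phyh, which hydroxylates phytanoyl-CoA in alpha-oxidation, 16909 for Cat, the catalase that removes hydrogen peroxide, and 15421 for Scp2, whose longer product is the thiolase of branched chains. These 3 genes held 63.3% of the summed level per kb of all 36. Of the distinct 50-base stretches in annotated Scp2 transcripts, 29.7% also occur in those of the pseudogene Scp2-ps2. How reads from such stretches were counted is not stated, so the Scp2 level is uncertain. Among the Pex genes the highest level per kb was 1078, for Pex11a, and the lowest 25.5, for Pex10. Hao2, an oxidase of long-chain hydroxy acids, was at 1.26 per kb and was the lowest of all 36. Spread between mice could not be had for these levels, so the order of close neighbours is not a finding.

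**Figure D1:**
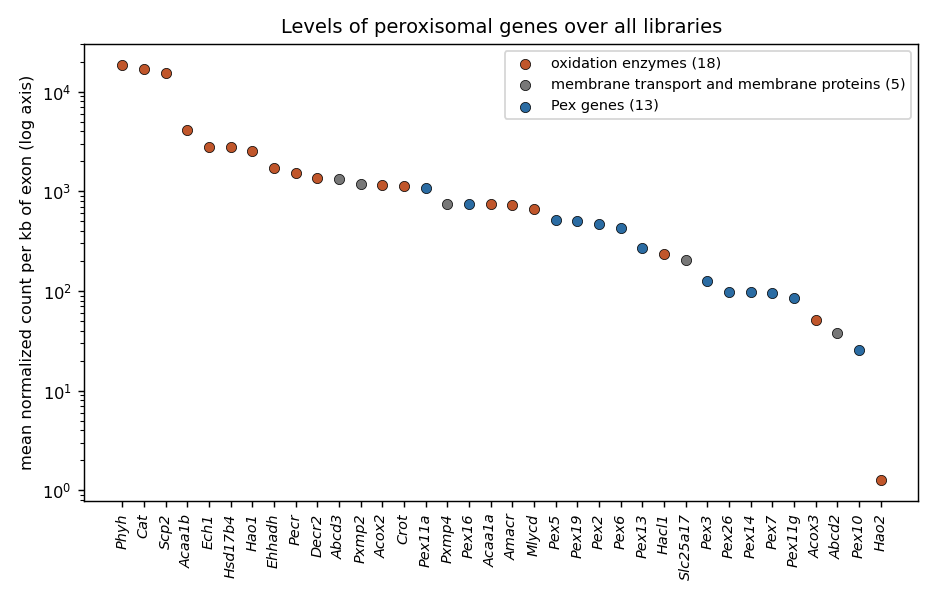
Mean normalized count per kb of exon (log axis) for each of the 36 genes, with 1 point per gene coloured by class. The mean is the authors', over libraries that are not stated, and was divided here by exon length. Phyh, Cat and Scp2 stand at 15421 to 18690, the Pex genes between 25.5 and 1078, and Hao2 at 1.26.

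Of the 36 genes, 35 had an adjusted p, and Hao2 had none because of its low mean normalized count of 2.58. At an adjusted p below 0.05, 6 of the 35 were called higher on the positive side in the authors' deposited table, and 0 were called higher on the negative side. They were Acaa1a, Acaa1b, Ech1 and Hao1 among the enzymes, and Pex11a and Pex11g among the Pex genes. The background is that of all 16288 tested genes, of which 6.57% were called in either direction, 3.67% on the positive and 2.9% on the negative side. The members' share was 17.1%. Abundant genes were called more often in general: of the 2469 genes whose mean normalized count was 1000 or more, 11.1% were called in either direction and 5.55% on the positive side. The corresponding share of the members with that count was 5 of 27, or 18.5%. In sign, 28 of the 35 members were positive, beside 49.2% of all tested genes. The median log2 fold change was 0.16 over the 35 members and -0.0044 over all tested genes.

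**Figure D2:**
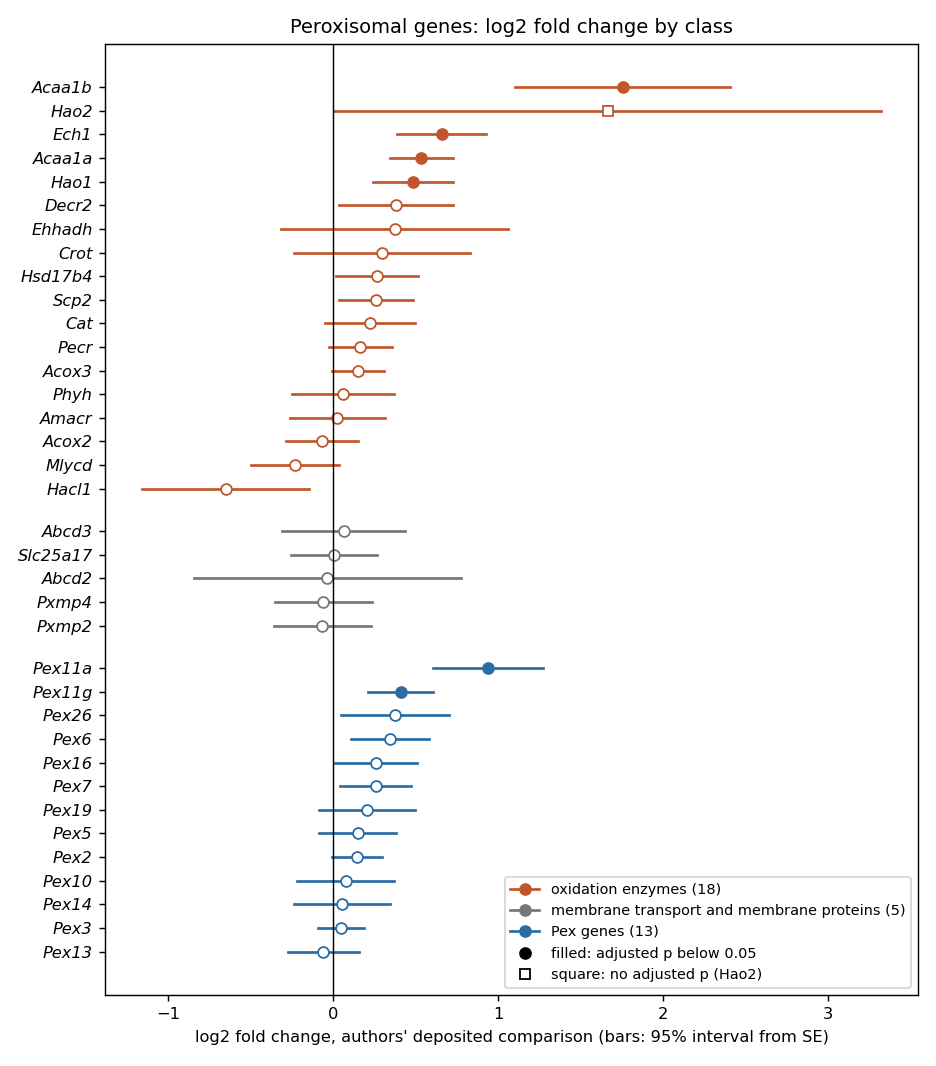
Log2 fold change in the authors' deposited comparison for each of the 36 genes by class, with bars for the 95% interval from the authors' SE, filled points for an adjusted p below 0.05 and a square for Hao2, which has no adjusted p. The 6 filled points, Acaa1b, Ech1, Acaa1a, Hao1, Pex11a and Pex11g, lie above 0, and the 5 membrane genes lie between -0.07 and 0.06.

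By p-value, the leading genes of the enzymes and of the Pex genes were pairs, the thiolases Acaa1a and Acaa1b and the division factors Pex11a and Pex11g. Their promoters are shown so that the members of each pair can be compared. Each sequence is the 250 bases before the RefSeq start on GRCm38.p6, written 5′ to 3′ on the strand of the gene, and capitals mark CG dinucleotides. Acaa1b is at chr9:119157094-119157343 on the minus strand, Acaa1a at chr9:119341044-119341293 on the plus strand, Pex11a at chr7:79743132-79743381 and Pex11g at chr8:3467649-3467898, both on the minus strand. The Acaa1a window lies inside the GENCODE span of its gene, 119339676 to 119350299, so the RefSeq and GENCODE starts differ there. The Acaa1b window adjoins its gene's span, so the windows of this pair may not be at like positions.
Acaa1b: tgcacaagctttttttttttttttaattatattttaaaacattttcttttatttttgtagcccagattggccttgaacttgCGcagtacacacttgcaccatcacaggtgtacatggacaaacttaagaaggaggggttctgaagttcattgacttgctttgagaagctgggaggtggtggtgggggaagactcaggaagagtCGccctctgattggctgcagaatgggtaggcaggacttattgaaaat
Acaa1a: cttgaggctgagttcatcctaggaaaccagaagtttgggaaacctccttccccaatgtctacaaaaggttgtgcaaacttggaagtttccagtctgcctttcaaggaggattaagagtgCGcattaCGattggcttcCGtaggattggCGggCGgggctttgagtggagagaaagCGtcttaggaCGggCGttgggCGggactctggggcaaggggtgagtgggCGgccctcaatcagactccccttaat
Pex11a: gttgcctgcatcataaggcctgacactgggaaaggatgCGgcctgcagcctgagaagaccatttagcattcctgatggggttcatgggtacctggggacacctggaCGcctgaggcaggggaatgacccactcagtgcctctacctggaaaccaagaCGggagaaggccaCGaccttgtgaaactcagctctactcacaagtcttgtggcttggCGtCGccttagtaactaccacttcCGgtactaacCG
Pex11g: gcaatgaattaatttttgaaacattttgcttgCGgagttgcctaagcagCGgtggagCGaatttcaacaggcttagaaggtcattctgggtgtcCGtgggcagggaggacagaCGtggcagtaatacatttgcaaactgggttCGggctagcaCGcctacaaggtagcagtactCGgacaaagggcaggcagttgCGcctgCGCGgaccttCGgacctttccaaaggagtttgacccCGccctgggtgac
Acaa1b had 2 CG dinucleotides in this window and Acaa1a 10, while Pex11a had 8 and Pex11g 13. The median was 6 over all 32851 windows of the RefSeq table, of which 29.0% held at most 2, as Acaa1b did. The 17 windows of oxidation enzymes had a median of 10, and the 14 windows of Pex genes a median of 12, with 30 of the 36 genes having at least 1 window. PPAR alpha binds, with its partner RXR, to a direct repeat of AGGTCA with 1 base between the copies. That repeat, known as DR1, was searched on both strands and was in 0 of the 35 member windows and in 0.0335% of all windows. A looser DR1, with any base in place of the T of both copies, takes in the first and was in 0 member windows and 0.338% of all. A single AGGTCA on either strand, which the strict DR1 also contains, was in the windows of Cat, Pex11g and Scp2 and in 14.0% of all windows. In Pex11g it began 173 bases before the start. The search covers these letters in these windows alone.

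Among the members that act in the straight-chain oxidation spiral, the calls stood at the last step. Acaa1b and Acaa1a encode the peroxisomal 3-ketoacyl-CoA thiolases, which split off acetyl-CoA. Acaa1b had the widest log2 fold change of the tested members in the authors' deposited table, 1.76 ± 0.33 (SE), a 3.38-fold difference with a 95% interval of 2.15 to 5.31 (adjusted p = 1.79e-05). Only 71 of the 16288 tested genes had a higher log2 fold change. Acaa1a was at 0.53 ± 0.10 (log2 units, SE), a 1.45-fold difference with an adjusted p of 7.44e-06 in the authors' deposited table. Its change was smaller than that of Acaa1b and its SE smaller too, and the 95% intervals of the log2 fold changes, 1.10 to 2.41 and 0.34 to 0.73, do not overlap. The difference between these 2 genes was not tested, since the covariance of their errors is not in the table. Scp2, the third thiolase gene, was at 0.26 ± 0.11 (log2 units, SE) with an adjusted p of 0.172 in the authors' deposited table. The part of the sequence it shares with Scp2-ps2 in that value was not tested.

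The 2 Acaa1 genes are neighbours and near-copies, so their values are not fully separate. Acaa1b (ENSMUSG00000010651) lies on chromosome 9 from 119148023 to 119157093 and Acaa1a (ENSMUSG00000036138) on chromosome 9 from 119339676 to 119350299 in GRCm38, 182.6 kb apart and on opposite strands. Of the distinct 50-base stretches in the annotated transcripts of Acaa1b, 30.5% also occur in Acaa1a transcripts, and of those of Acaa1a, 12.4% occur in Acaa1b transcripts. How reads from the shared stretches were counted is not stated, so the split of the change between the genes is uncertain.

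Neither enzyme family at the steps before the thiolases was called among the members. Ehhadh, the L-bifunctional enzyme that hydrates and dehydrogenates straight-chain intermediates, was at 0.37 ± 0.35 (log2 units, SE, from the authors' deposited table). With that SE, the next to largest among the tested members, a log2 fold change of 1.03 would have been needed for a call, and its 95% interval ran from 0.80-fold to 2.09-fold. Hsd17b4, the D-bifunctional enzyme used for branched chains and bile acid intermediates, was at 0.27 ± 0.13 (log2 units, SE, adjusted p = 0.222, from the authors' deposited table). Acox2 and Acox3 encode the oxidases that start oxidation of branched chains, and stood at -0.07 ± 0.11 and 0.15 ± 0.08 (log2 units, SE, from the authors' deposited table).

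Among the auxiliary enzymes 1 of 4 was called. Ech1, an isomerase that rearranges the double bonds of unsaturated chains, was at 0.66 ± 0.14 (log2 units, SE), or 1.58-fold with a 95% interval of 1.31 to 1.90. Its adjusted p in the authors' deposited table was 0.000162. It lies on chromosome 7 from 28825217 to 28832247 in GRCm38 (ENSMUSG00000053898), and 0 of its 50-base stretches are in transcripts of other genes. Decr2, a reductase of unsaturated intermediates, was at 0.38 ± 0.18 and Pecr, an enoyl-CoA reductase, at 0.16 ± 0.10 (log2 units, SE, adjusted p = 0.209 and 0.367 in the authors' deposited table). Amacr, the racemase that readies branched chains, was at 0.02 ± 0.15 (log2 units, SE, from the authors' deposited table). Crot, which loads shortened chains onto carnitine for export, was at 0.30 ± 0.27 there, and Mlycd, malonyl-CoA decarboxylase, at -0.23 ± 0.14 (log2 units, SE, from the authors' deposited table), neither of them called.

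The oxidases that make hydrogen peroxide and the catalase that breaks it down gave 1 call. Hao1, glycolate oxidase, was at 0.48 ± 0.12 (log2 units, SE), or 1.40-fold with a 95% interval of 1.18 to 1.65. Its adjusted p in the authors' deposited table was 0.00368. Hao1 (ENSMUSG00000027261) lies on chromosome 2 from 134497361 to 134554368 in GRCm38. Cat had a 95% interval from 0.965-fold to 1.41-fold. Hao2 was at 1.67 ± 0.85 (log2 units, SE) with an unadjusted p of 0.0492 in the authors' deposited table, on a mean normalized count of 2.58.

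Alpha-oxidation, which removes 1 carbon from phytanic acid before the spiral can act, held the lowest value of the 36 genes. Hacl1, the lyase of that pathway, was at -0.65 ± 0.26 (log2 units, SE), or 0.636-fold, with an unadjusted p of 0.0112 and an adjusted p of 0.108 in the authors' deposited table. Of its exon bases, 31.1% are also exons of Gm49387, annotated on the same strand and not a row of the table, so reads there may have been counted for neither gene. Its neighbour Btd, biotinidase, shares 108 exon bases with it on the opposite strand and was called at -0.37 ± 0.11 (log2 units, SE, adjusted p = 0.0236, from the authors' deposited table). The part of these overlaps in the Hacl1 value was not tested. Phyh, the step before Hacl1, was at 0.06 ± 0.16 (log2 units, SE, adjusted p = 0.900, from the authors' deposited table).

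None of the 5 membrane genes was called, and their log2 fold changes lay between -0.07 (Pxmp2) and 0.06 (Abcd3) in the authors' deposited table. Abcd3, which carries branched and dicarboxylic chains inward, had a 95% interval from 0.807-fold to 1.35-fold. Slc25a17, the carrier of cofactors such as CoA, had one from 0.837-fold to 1.20-fold, and Pxmp2, a channel protein, from 0.780-fold to 1.17-fold. For 4 of the 5, differences above 1.5-fold in either direction lie outside the interval. The exception is Abcd2, a transporter of very long chains, at -0.04 ± 0.41 (log2 units, SE, from the authors' deposited table), the largest SE among the tested members.

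Within the Pex genes both calls were division genes. Pex11a, whose product elongates the organelle before it divides, was at 0.94 ± 0.17 (log2 units, SE), or 1.92-fold with a 95% interval of 1.52 to 2.42. In the authors' deposited table it had an adjusted p of 5.26e-06, the smallest of the 36 genes and rank 98 of all tested genes. Pex11g, a relative of Pex11a in the same family, was at 0.41 ± 0.10 (log2 units, SE), or 1.33-fold with a 95% interval of 1.16 to 1.52. Its adjusted p in the authors' deposited table was 0.00251. Pex11a (ENSMUSG00000030545) lies on chromosome 7 from 79735957 to 79743131 and Pex11g (ENSMUSG00000069633) on chromosome 8 from 3457105 to 3467680 in GRCm38. No 50-base stretch of Pex11a is shared with another gene. Of the Pex11g exon bases, 41.1% are overlapped on the opposite strand by Gm44775, whose mean normalized count was 0.101 beside 286 for Pex11g in the authors' deposited table.

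The other 11 Pex genes, which work in import or in the insertion of membrane proteins, gave 0 calls. Of these, 4, all positive, had an unadjusted p under 0.05. At that level 9.64% of all tested genes were positive and 9.41% negative. The log2 fold changes of the 11 ran from -0.06 to 0.37, with 10 of 11 positive and a median of 0.15. Pex6 came closest to a call. Of the receptor export genes, Pex6, an ATPase that pulls used receptors out of the membrane, was at 0.34 ± 0.12 (log2 units, SE, adjusted p = 0.0605), and Pex26, its membrane anchor, at 0.37 ± 0.17 (log2 units, SE, adjusted p = 0.177, from the authors' deposited table). Pex6 passed when p-values were adjusted only over genes whose mean normalized count in the authors' deposited table was 100 or more (adjusted p = 0.0486). The import receptor Pex7 was next after Pex6 by p, at 0.26 ± 0.11 with an adjusted p of 0.148, and the other import receptor, Pex5, was at 0.15 ± 0.12 (log2 units, SE, from the authors' deposited table). The docking genes Pex13 and Pex14 were at -0.06 ± 0.11 and 0.05 ± 0.15 (log2 units, SE, from the authors' deposited table). Pex2 and Pex10, ubiquitin ligases that act on the receptor, were at 0.14 ± 0.08 and 0.07 ± 0.15 (log2 units, SE, from the authors' deposited table). Of the genes that insert membrane proteins, Pex16 was at 0.26 ± 0.13, Pex19 at 0.20 ± 0.15 and Pex3 at 0.04 ± 0.07 (log2 units, SE, from the authors' deposited table). For 10 of these 11 genes, Pex26 being the exception, the 95% interval lies inside 1.5-fold in both directions.

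Set beside each other, the enzymes and the Pex genes had similar middles and different ranges. The 17 tested enzymes had a median log2 fold change of 0.26, with values from -0.65 to 1.76 and 14 positive in sign. The 13 Pex genes had a median of 0.20, with values from -0.06 to 0.94 and 12 positive in sign. Calls were made for 4 of 17 enzymes (23.5%) and 2 of 13 Pex genes (15.4%), against the background of 6.57%. The 13 enzymes that were not called had a median of 0.16, and the 11 Pex genes that were not called had one of 0.15. The authors' SE had a median of 0.14 in the enzymes and 0.12 in the Pex genes, so a typical log2 fold change of 0.40 in the first and 0.35 in the second was needed for a call. The SEs ran from 0.08 to 0.35 in the enzymes and from 0.07 to 0.17 in the Pex genes. Their part in the wider range of the enzymes was not tested. These classes are described by counts and medians, and the difference between the classes was not tested.

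**Figure D3:**
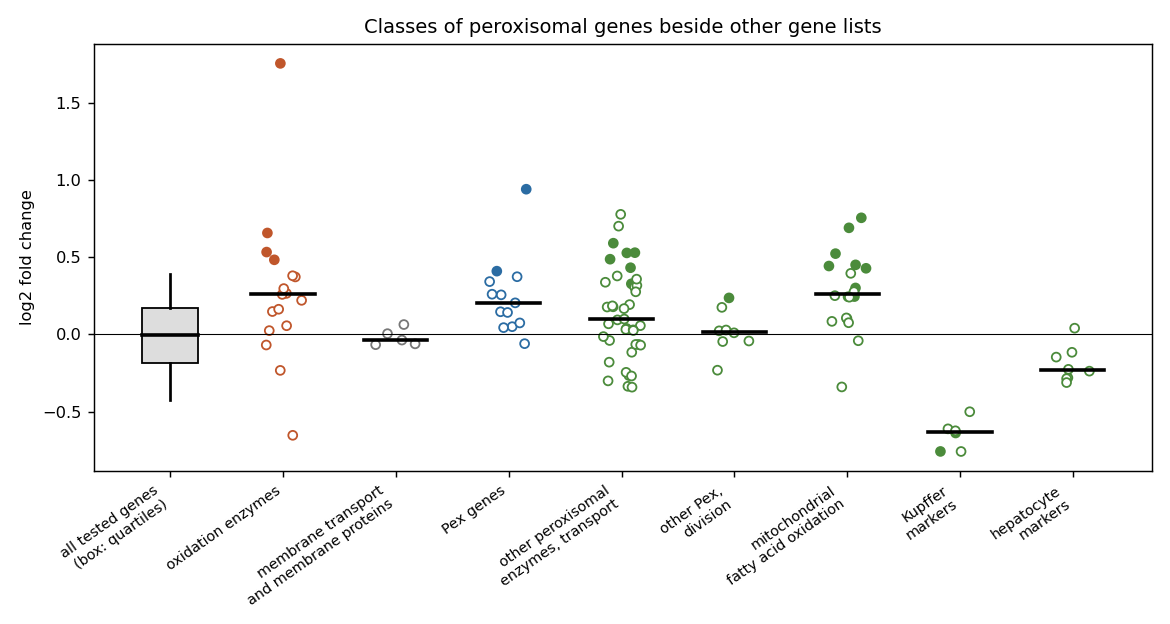
Log2 fold change of the tested genes of each class and of other lists, with 1 point per gene, filled at an adjusted p below 0.05, and a bar at the median. The box for all 16288 tested genes spans the quartiles, -0.19 to 0.17, with whiskers at the 10th and 90th percentiles, -0.42 and 0.39; the enzyme and Pex medians are 0.26 and 0.20.

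Calls on the positive side were also made among other peroxisomal genes. Of 40 further tested enzymes and membrane genes of the organelle, 6 (15%) were called positive and 0 negative, with a median log2 fold change of 0.097 and 27 positive in sign. The share of all tested genes called in either direction was 6.57%. Dhrs4, a carbonyl reductase of the matrix, was at 0.53 ± 0.12 (log2 units, SE, from the authors' deposited table). Idh1, which makes NADPH in cytosol and peroxisome, was at 0.33 ± 0.09 and Dhrs7b, a step of ether lipid synthesis, at 0.43 ± 0.13 (log2 units, SE, from the authors' deposited table). Of 8 other Pex and division genes, 1 (12.5%) was called positive and 0 negative, with a median of 0.017 and 5 positive in sign. That gene was Fis1, an adaptor shared with mitochondria, at 0.24 ± 0.08 (log2 units, SE, adjusted p = 0.0435, from the authors' deposited table). Mitochondrial fatty acid oxidation, the parallel route, had 8 of 20 genes (40%) called positive, 0 negative and a median of 0.26. In sign, 18 of these genes were positive and 2 negative, with values from -0.34 to 0.76. Eci1, an isomerase for unsaturated chains in mitochondria, was at 0.76 ± 0.16 (log2 units, SE, adjusted p = 0.000117, from the authors' deposited table), near the 0.66 of its functional relative Ech1.

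Among the marker lists of liver cell types, calls were made in the Kupffer cell list only. All 6 Kupffer cell markers were negative in sign, from -0.76 to -0.50, and 2 (Timd4 and Fcna) were called negative in the authors' deposited table. Of all tested genes, 2.9% were called negative. The 8 hepatocyte markers gave 0 calls, with 7 negative in sign, a median of -0.23 and 1 with an unadjusted p under 0.05. Calls were also 0 among the 5 sinusoidal endothelial markers, all negative in sign with a median of -0.40, the 5 cholangiocyte markers, all positive with a median of 0.43, and the 5 stellate cell markers, 4 of them negative with a median of -0.07. The summed level of these lists in each group could not be had without libraries, and their part in the values of the peroxisomal genes was not tested.

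**Figure D4:**
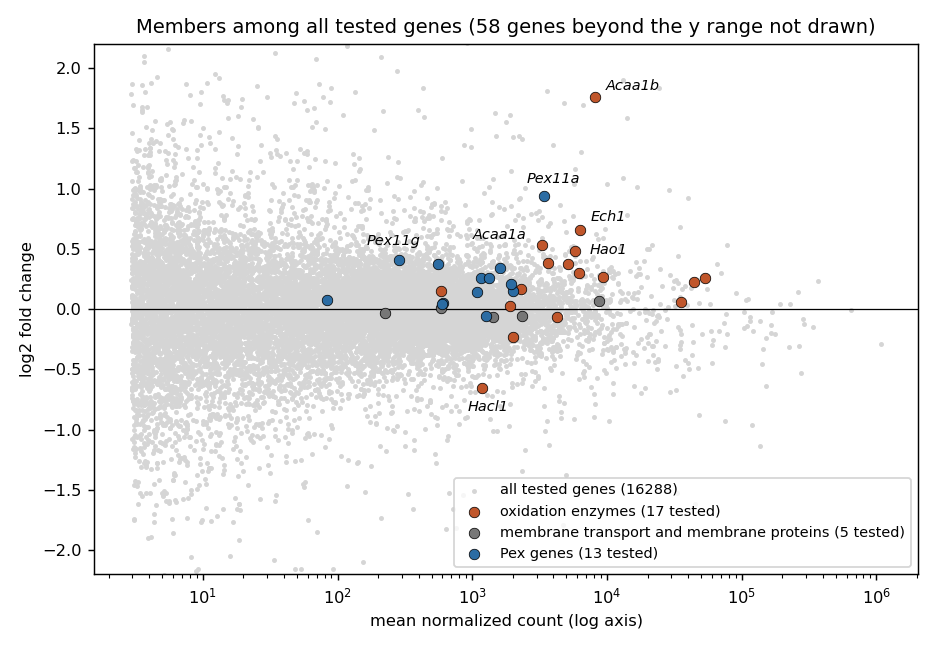
Log2 fold change against mean normalized count (log axis) for all 16288 tested genes in grey and the 35 tested members in colour, with 58 genes beyond the y range not drawn. Acaa1b stands at 1.76 and Pex11a at 0.94, and Hacl1 is the lowest member at -0.65.

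Of the 6 calls, 3 depended on how the spread of the authors' statistic was treated. Over all tested genes that statistic had a median absolute deviation, scaled to a normal SD, of 1.44, where 1 is the value of a standard normal. When every statistic was divided by it, Acaa1a, Acaa1b and Pex11a stayed below 0.05, while Ech1 did not, with an adjusted p of 0.0830, nor did Hao1, with 0.283, or Pex11g, with 0.250. The share called was then 8.57% of the members and 0.872% of all tested genes.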

How the data were processed

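Per the labels' protocols, liver RNA of 16 mice was made into libraries with a kit for stranded mRNA. The tools FastQC, Trimmomatic, HISAT2, HTSeq 0.11.1 and the build GRCm38 are named in the submitters' processing notes, without role, order or strand setting. Per the file headers, the deposited table gives the authors' mean normalized count per gene (a signal), log2 fold change with its SE on the log2 scale, test statistic (a score), p-value and adjusted p-value. Its model, samples and direction are not stated.

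Checked on the values, the statistic is the fold change over its SE, the p-value is its 2-sided normal p, and the adjusted p-value is Benjamini-Hochberg over the 16288 genes whose mean normalized count reached 2.949. The 16 columns with library codes matched no sample and were used in no step. Depth per sample is therefore unknown, the precision of a value is the authors' SE, and the planned own test between groups was not run. Nothing says whether the libraries came from separate litters or cages. The p-values rest on the authors' SE, and which samples' spread enters that SE is not stated.

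Intervals are 95% normal intervals from the SE. The change needed for a call is the SE times 2.94, the smallest absolute statistic of a called gene. Exon lengths and overlaps came from GENCODE release M21 (GRCm38), where the Ensembl identifiers of all 36 genes were found, and 50-base stretches from its transcripts. Promoter sequences came from RefSeq on GRCm38.p6, matched by symbol for 30 of 36 genes. Steps were run in Python 3.11.15 with pandas 2.3.3 and SciPy 1.17.1. The adjustments were tested on simulated statistics whose errors followed the authors' SE. The wider spread of the real statistic, 1.44, was not simulated, so that test does not measure false calls in these data. The members and lists were chosen with earlier results of these data known. All 36 members may be named; of each other list, the called genes with the smallest p, at most 4. Alternatives were thresholds, count minimums, another adjustment and a scaled statistic. Some genes of these lists are counted but not reported by name here.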

Additional observations from a re-analysis of the deposited data

How the results depend on the processing

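The 6 members were called under thresholds of 0.01 and 0.10, minimum mean normalized counts of 10 and 100, no minimum, and the Benjamini-Yekutieli adjustment; Pex6 joined them with the threshold of 0.10 and with the minimum of 100. With the statistic divided by its median absolute deviation, 3 members were called, 2 of them oxidation enzymes and 1 a Pex gene, all 3 among the 6. The count over all genes, 1070, became 491 at a threshold of 0.01, 389 with Benjamini-Yekutieli and 142 with the scaled statistic; these follow from the stricter rules. Over these alternatives, 239 of 244 calls made again for single members came out as before. Much of that agreement was fixed in advance, since every alternative reuses the authors' p-values or statistics. A stricter rule cannot add a call and a looser threshold cannot remove one. The total is therefore no measure of how firm the 6 calls are. Medians kept their sign with members of a count of at least 100 (0.18 over all members, 0.26 for enzymes, 0.23 for Pex genes) and as means weighted by 1/SE squared (0.19, 0.23 and 0.19).

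No paired analysis was possible because the library columns carry no replicate number or sample label, and leaving out single replicates was not possible for the same reason. Low counts limit Hao2, and large SEs limit Ehhadh, Abcd2 and Crot.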

Other observations

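Regulators of these genes did not move as a block. Pparg, a fatty acid receptor whose level is low in normal liver, was called positive at 1.26 ± 0.25 (log2 units, SE, adjusted p = 3.34e-05, from the authors' deposited table). Ppargc1a, a coactivator of oxidative genes, was called negative in the authors' deposited table, at -1.30 ± 0.22 (log2 units, SE, adjusted p = 5.88e-07). Transcripts of the receptor PPAR alpha itself, Ppara, stood at 0.01 ± 0.17 (log2 units, SE, adjusted p = 0.987, from the authors' deposited table), and those of its partner Rxra at -0.05 ± 0.09. Of the 10 regulators listed, 1 was called positive and 1 negative, with a median of -0.047. That is 20%, beside 6.57% of all tested genes called in either direction.

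PPAR alpha target genes outside the peroxisome had 7 of 26 tested genes (26.9%) called positive, 0 negative and a median of 0.20. Of all tested genes, 6.57% were called in either direction and 3.67% on the positive side. In sign, 19 of the 26 were positive and 7 negative. Vnn1, a pantetheinase, was at 1.63 ± 0.28 and Aldh3a2, an aldehyde dehydrogenase of fatty aldehydes, at 1.17 ± 0.30 (log2 units, SE, from the authors' deposited table). Cyp4a10 and Cyp4a14, omega-hydroxylases that feed dicarboxylic chains to peroxisomes, had opposite signs in the authors' deposited table, -0.79 ± 0.56 and 1.04 ± 0.39 (log2 units, SE), and neither was called; they were picked after their values were seen. Among 8 genes of peroxisome turnover by autophagy, 1 was called positive (Atg7, at 0.25 ± 0.08, log2, SE, from the authors' deposited table), 0 were called negative, and the median was -0.0028. That is 12.5%, beside 6.57% of all tested genes, and 1 call among 8 genes is not read as a result.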
